A study of Rattus norvegicus with 12 samples.

Results

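The interleukin-1 family comprises a small set of cytokines and the receptors that read them, and its levels were followed here in cultured heart muscle cells given the anthracycline doxorubicin after knockdown of the acetyltransferase p300. The set held 10 genes named by the platform's gene symbol: the ligands Il1a, Il1b, Il18 and Il33, the antagonist Il1rn, and the receptor genes Il1r1, Il1r2, Il1rap, Il1rl1 and Il1rl2. All 10 were measured, each by 1 probe set, among 14506 genes in all. The family was chosen by the measured drug response of Il1rl2, seen to be higher with the drug in earlier results of these arrays, so that response is described without a test.

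The cells were neonatal cardiac myocytes of Sprague Dawley rats in primary culture. The 4 groups were cells transfected with siRNA against p300 (p300kd) and exposed to 1 µM doxorubicin (Dox) for 8 h, cells with a non-silencing siRNA (NS) and Dox for 8 h, p300kd cells at 0 h, and NS cells at 0 h, with 3 arrays in each group, numbered here as experiments 1 to 3 after their replicate labels. All groups shared transfection, bromodeoxyuridine early in culture to limit fibroblast growth, and 48 h without serum before the drug. Cultures were over 90% myocytes by the submitters' account, so other cells were present, and no group was kept 8 h without Dox, so drug and elapsed time cannot be told apart.

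IL-1α and IL-1β bind the signalling receptor encoded by Il1r1, which then recruits the accessory protein encoded by Il1rap. The complex signals through MyD88, IRAK kinases and TRAF6 to NF-κB. IL-1 receptor antagonist, from Il1rn, occupies the same receptor without signalling, and the Il1r2 product is a decoy. IL-33 signals through ST2, the product of Il1rl1, and the IL-36 cytokines through the product of Il1rl2, both again with the accessory protein. In the heart, IL-1β is known to depress contractility, and soluble ST2 is a circulating marker of heart failure.

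The receptor genes Il1r1, Il1rl2 and Il1rl1 lie next to each other in that order on chromosome 9 and gave different readings with Dox, so their promoter windows are shown, each from 250 bases before to 50 after the gene's start. The sequences are from RefSeq on build GRCr8, all on the plus strand. They are at chr9:50087302-50087601 for Il1rl2, chr9:50203388-50203687 for Il1rl1 and chr9:50034133-50034432 for Il1r1. Capitals mark the only match in each window to the motifs searched: a CArG box in Il1rl2, the binding element of serum response factor, a p53 half-site in Il1rl1, and a κB element in Il1r1.
Il1rl2: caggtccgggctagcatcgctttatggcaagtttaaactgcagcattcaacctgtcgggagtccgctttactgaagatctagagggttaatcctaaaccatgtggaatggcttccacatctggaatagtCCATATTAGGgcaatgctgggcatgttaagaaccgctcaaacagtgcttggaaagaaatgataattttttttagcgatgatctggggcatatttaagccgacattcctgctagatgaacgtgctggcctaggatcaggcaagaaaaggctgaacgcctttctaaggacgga
Il1rl1: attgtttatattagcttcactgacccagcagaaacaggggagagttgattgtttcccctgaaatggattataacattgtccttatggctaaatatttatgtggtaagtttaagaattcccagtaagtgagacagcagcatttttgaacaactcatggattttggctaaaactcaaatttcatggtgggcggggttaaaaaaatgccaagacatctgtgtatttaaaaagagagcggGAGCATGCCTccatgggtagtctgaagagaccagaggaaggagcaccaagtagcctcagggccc
Il1r1: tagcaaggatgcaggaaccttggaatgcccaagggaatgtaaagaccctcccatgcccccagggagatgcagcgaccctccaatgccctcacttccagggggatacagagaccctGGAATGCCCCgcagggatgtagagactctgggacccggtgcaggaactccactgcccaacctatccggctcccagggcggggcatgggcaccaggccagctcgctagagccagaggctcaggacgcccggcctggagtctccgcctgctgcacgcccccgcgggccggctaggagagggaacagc

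The motifs were picked after the Il1rl2 sequence had been read, were searched on both strands, and did not overlap each other. Of 33469 promoter windows of the same length, 1.64% held a CArG box, 7.98% a p53 half-site, 4.18% a κB element and 7.33% the AP-1 motif TGANTCA. The CArG box of Il1rl2 starts 121 bases before the gene's start, the κB element of Il1r1 135 bases before it and the p53 half-site of Il1rl1 14 bases before it. Il1a and Il18 each held an AP-1 motif, Il1rap a κB element and, in 1 of its 2 windows, a p53 half-site, and the windows of Il1b, Il1rn and Il33 held none of the 4. These matches describe the letters of the windows and are not evidence of binding.

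Values are log2 of the deposited RMA intensities, the summary of each probe set after background correction and quantile normalisation of the arrays. The median of each array lay between 7.73 and 7.80, and the median level of all genes was 8.57. Ep300, the siRNA's target, averaged 9.85 ± 0.233 in p300kd cells and 10.77 ± 0.0817 in NS cells at 8 h, and 10.16 ± 0.215 in p300kd cells and 11.11 ± 0.0838 in NS cells at 0 h (SD, n = 3 each). Averaged over both times it was lower by a log2 change of -0.93 in p300kd cells (limma, adjusted p = 0.00212). All 10 cardiac myocyte markers lay above the median of all genes, at 11.5 to 14.2, as did all 10 fibroblast markers, at 8.91 to 13.6. Of 13 macrophage markers 4 lay above it, and none of the 7 endothelial, 6 neutrophil or 7 mast cell markers did. In a mixed culture, fewer cells of a type and less RNA per cell cannot be told apart.

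Il1rl2, the receptor of IL-36, was about 3-fold higher after 8 h of Dox with either siRNA. It read 10.56, 10.18 and 10.15 in p300kd cells at 8 h, against 9.20, 8.57 and 8.29 in p300kd cells at 0 h, in experiments 1, 2 and 3. In NS cells it read 10.50, 10.51 and 10.27 at 8 h, against 9.0, 8.88 and 8.65 at 0 h. Every 8 h array lay above every 0 h array, while the p300kd and NS arrays overlapped at each time. The log2 change was 1.61 in p300kd cells, a fold of 3.05, and 1.59 in NS cells, a fold of 3.00. Within experiments it was 1.36, 1.61 and 1.86 in p300kd cells and 1.50, 1.63 and 1.63 in NS cells. Among rises of 14506 genes it stood in place 9 in p300kd cells and in place 4 in NS cells. Epithelium is a known site of IL-36 receptor action. Of 5 epithelial markers, Krt18 fell in both arms (-1.19 in p300kd, -1.55 in NS) and Epcam rose in NS cells (0.31). Epcam in p300kd cells (0.17) did not pass limma. Neither did Cdh1 (0.16 in p300kd, -0.00 in NS), Krt14 (0.01 and -0.11) or Krt8 (-0.14 and -0.11). The summed linear intensity of the 5 was 1072 to 1147 at 8 h and 1456 to 1720 at 0 h in p300kd cells. In NS cells it was 998 to 1165 at 8 h and 1669 to 2043 at 0 h. Krt18 was the only marker in the sum called down. The part of epithelial cells in the Il1rl2 difference was not tested.

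**Figure D1:**
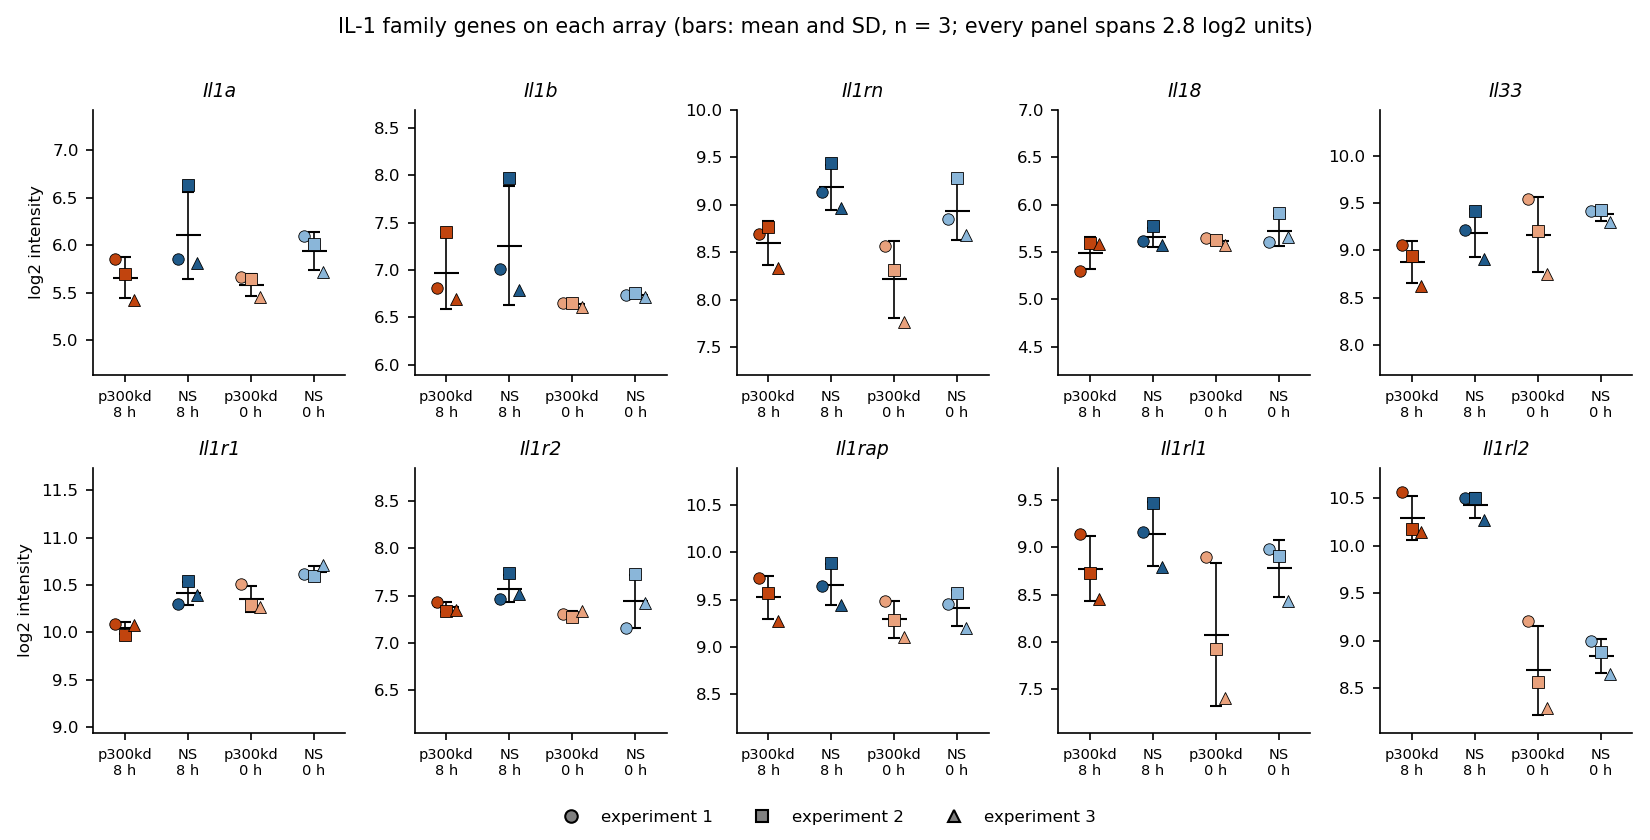
Log2 intensity of each of the 10 genes on all 12 arrays, in 1 panel per gene, with the groups p300kd 8 h, NS 8 h, p300kd 0 h and NS 0 h along the x axis, marker shapes for the 3 experiments and bars for the group mean ± SD. Il1rl2 at 8 h lies above all its 0 h values, whereas Il1rl1 at 0 h spreads widely between p300kd experiments (7.41 to 8.90).

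The genes beside Il1rl2 on chromosome 9 did not share its size of response. Il1rl1, the neighbouring ST2 gene, read 9.14, 8.73 and 8.45 in p300kd cells at 8 h, against 8.90, 7.92 and 7.41 in p300kd cells at 0 h. In NS cells it read 9.16, 9.47 and 8.79 at 8 h, against 8.98, 8.91 and 8.43 at 0 h. The 8 h and 0 h values overlapped in both arms, yet within each experiment the 8 h array was the higher one. The log2 change of Il1rl1 was 0.70 (SE 0.314) in p300kd cells, with a limma adjusted p = 0.111 that became 0.00369 with the experiment as a block, a fit that compares arrays within experiments. It was 0.36 (SE 0.314) in NS cells, with an adjusted p = 0.431, or 0.106 with the block. When 1 array or 1 experiment was left out, the p300kd change ranged from 0.36 to 1.11. It passed limma without the 0 h p300kd array of experiment 1 (1.11, adjusted p = 0.00584) and without experiment 1 (0.93, 0.0211). No other omission passed.

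Il1r1, the signalling receptor for IL-1, lies on the other side of Il1rl2 and was lower with Dox. It read 10.09, 9.97 and 10.08 in p300kd cells at 8 h, against 10.51, 10.29 and 10.27 in p300kd cells at 0 h. In NS cells the values were 10.30, 10.54 and 10.39 at 8 h, against 10.62, 10.60 and 10.71 at 0 h. In both arms every 8 h array lay below every 0 h array. Il1r1 fell by 0.31 (SE 0.0914) in p300kd cells, or 1.24-fold (limma, adjusted p = 0.0206, and 0.00558 with the block). The change of -0.23 (SE 0.0914) in NS cells had an adjusted p = 0.0820, and passed with the block at 0.0337. The p300kd call was lost when arrays were centred on their medians (adjusted p = 0.0721), without any 1 of the 3 experiments (0.0629 to 0.124), and without either of 2 single arrays, the 0 h array of experiment 1 (0.0920) or the 8 h array of experiment 2 (0.0813).

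Endothelium and fibroblasts can carry the IL-1 receptor, so their markers were read with Dox as well. The summed linear intensity of 7 endothelial markers was 1146 to 1179 at 8 h and 1434 to 1500 at 0 h in p300kd cells, and 1192 to 1354 at 8 h and 1587 to 1642 at 0 h in NS cells, without overlap in either arm. Of the 7, Kdr (-0.98 in p300kd, -0.92 in NS) and Cdh5 (-0.26 and -0.40) fell. Of 10 fibroblast markers Pdgfra fell (-0.88 and -0.79) and Thy1 rose (0.51 and 0.49), and the summed intensity was 36044 to 42971 at 8 h and 36121 to 43933 at 0 h in p300kd cells, and 40880 to 45533 at 8 h and 42111 to 46716 at 0 h in NS cells, with overlap in both arms. Neither list's count of called markers stood out from the share of all genes called, 31.4% in p300kd cells and 27.5% in NS cells. Median changes in p300kd and NS cells were -0.13 and -0.23 for endothelial markers and 0.06 and 0.03 for fibroblast markers. Over all genes they were 0.0409 and 0.0362. The part of these cells in the lower Il1r1 readings was not tested.

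The remaining genes of the stretch showed small differences. Il1r2, the decoy, gave 0.07 in p300kd cells and 0.14 in NS cells, neither past the test (limma, adjusted p = 0.695 and 0.440). Il18r1, a chain of the IL-18 receptor, gave 0.19 and 0.10 (limma, adjusted p = 0.0848 and 0.399). The flanking genes Map4k4 and Slc9a4 gave -0.13 and -0.15 in p300kd cells, against -0.14 and -0.00 in NS cells. A difference as large as that of Il1rl2 was seen at none of the measured genes of this stretch. The order is that of the RefSeq table of GRCr8, in which 2 genes without a value here, an lncRNA and H3f3al3, lie between Il1r2 and Il1r1. Il18rap, another IL-18 receptor gene, lies between Il18r1 and Slc9a4 and also had no value.

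**Figure D2:**
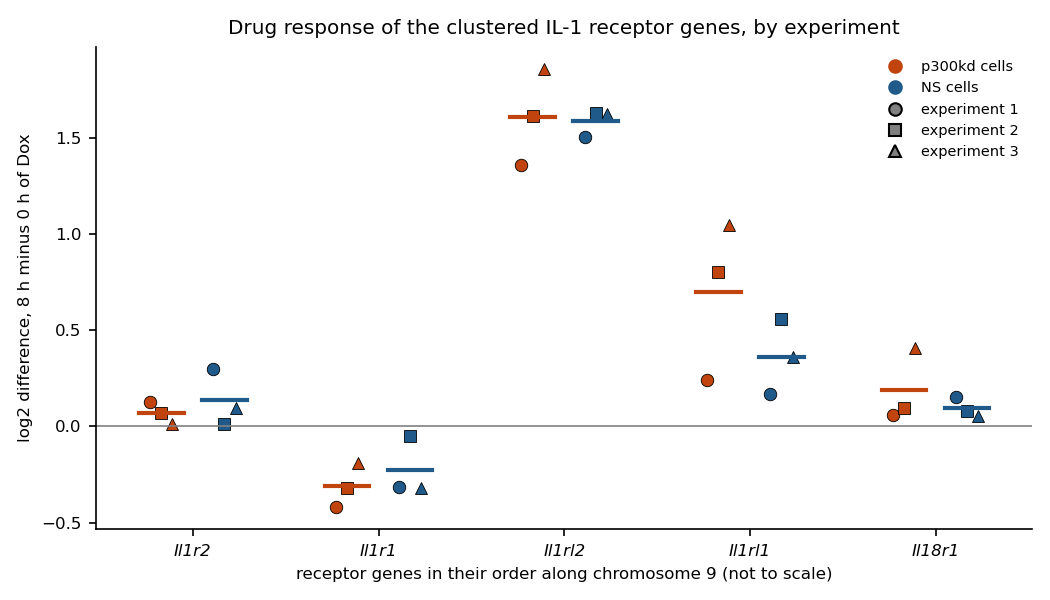
Difference in log2 intensity between 8 h and 0 h of Dox within each experiment for Il1r2, Il1r1, Il1rl2, Il1rl1 and Il18r1, placed in their order on chromosome 9 and not to scale, for p300kd and NS cells. Il1rl2 lies at 1.36 to 1.86, and its neighbours Il1r1 and Il1rl1 lie below and above 0.

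Il1rap, the accessory chain on chromosome 11 that the receptors of IL-1, IL-33 and IL-36 share, had modestly higher readings with Dox. It read 9.72, 9.57 and 9.28 in p300kd cells at 8 h, against 9.49, 9.29 and 9.10 in p300kd cells at 0 h. The NS values were 9.64, 9.88 and 9.45 at 8 h, against 9.46, 9.57 and 9.20 at 0 h. Groups overlapped, but all 6 within-experiment differences were above 0. The log2 changes of 0.23 in p300kd cells and 0.25 in NS cells missed the limma threshold (adjusted p = 0.264 and 0.250) and passed with the experiment as a block (0.0321 and 0.0252). With the block as a random effect, which estimates the correlation within experiments, neither passed (0.0906 and 0.0776).

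Among the ligands, Il1b, whose product is secreted after cleavage by caspase-1, had the widest scatter between arrays at 8 h. It read 6.81, 7.40 and 6.70 in p300kd cells at 8 h, against 6.65, 6.65 and 6.61 in p300kd cells at 0 h. The NS cells read 7.01, 7.97 and 6.79 at 8 h, against 6.74, 6.76 and 6.71 at 0 h. All 8 h values exceeded all 0 h values within each arm, but experiment 2 gave most of the difference. The change was 0.33 (SE 0.244, limma adjusted p = 0.332, 0.126 with the block) in p300kd cells. In NS cells it was 0.52 (SE 0.244, limma adjusted p = 0.136), and it passed with the block (0.0205). Without the NS 8 h array of experiment 2 the NS change was 0.16 (limma, adjusted p = 0.505).

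The other ligands and the antagonist did not pass limma on all arrays. Il33, an alarmin kept in the nucleus and released by injured cells, gave -0.29 in p300kd cells (limma, adjusted p = 0.255, block 0.0362, random block 0.0919) and -0.20 in NS cells (0.455, block 0.145). Without the 0 h p300kd array of experiment 3 the p300kd value of Il33 was -0.50 (limma, adjusted p = 0.0426). Over all omissions of 1 array or 1 experiment it ranged from -0.50 to -0.10, and no other omission passed. Il1rn gave 0.38 in p300kd cells, past the threshold with the block (limma, adjusted p = 0.189, block 0.0104), and 0.24 in NS cells (0.423, block 0.0901). Il1a, the IL-1 ligand active without cleavage, gave 0.07 and 0.16, and Il18 gave -0.12 and -0.07, with adjusted p-values from 0.368 to 0.800 in limma. Il1a, Il1b, Il18 and Il1r2 lay below the median level of all genes in every group.

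Apart from Il1rl2, Dox changed 1 of 9 members in p300kd cells, Il1r1 downward, where 31.4% of all genes passed the test. In NS cells 0 of 9 passed, where 27.5% of all genes did. At an unadjusted p under 0.05 the limma counts were 2 and 1 of 9, beside 6082 and 5569 of all 14506 genes. With the experiment as a block, 5 of 9 passed in p300kd cells, 3 up and 2 down, against 45.8% of all genes. In NS cells 3 of 9 passed with the block, 2 up and 1 down, against 43.5%. Neither arm's count stood out from the share of all genes. The median change of the 10 genes, Il1rl2 included, was 0.15 in p300kd cells and 0.20 in NS cells, beside 0.0409 and 0.0362 over all genes. It is a description only, since the family was chosen by Il1rl2. The other 9 ran from -0.31 (Il1r1) to 0.70 (Il1rl1) in p300kd cells. In NS cells they ran from -0.23 (Il1r1) to 0.52 (Il1b).

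**Figure D3:**
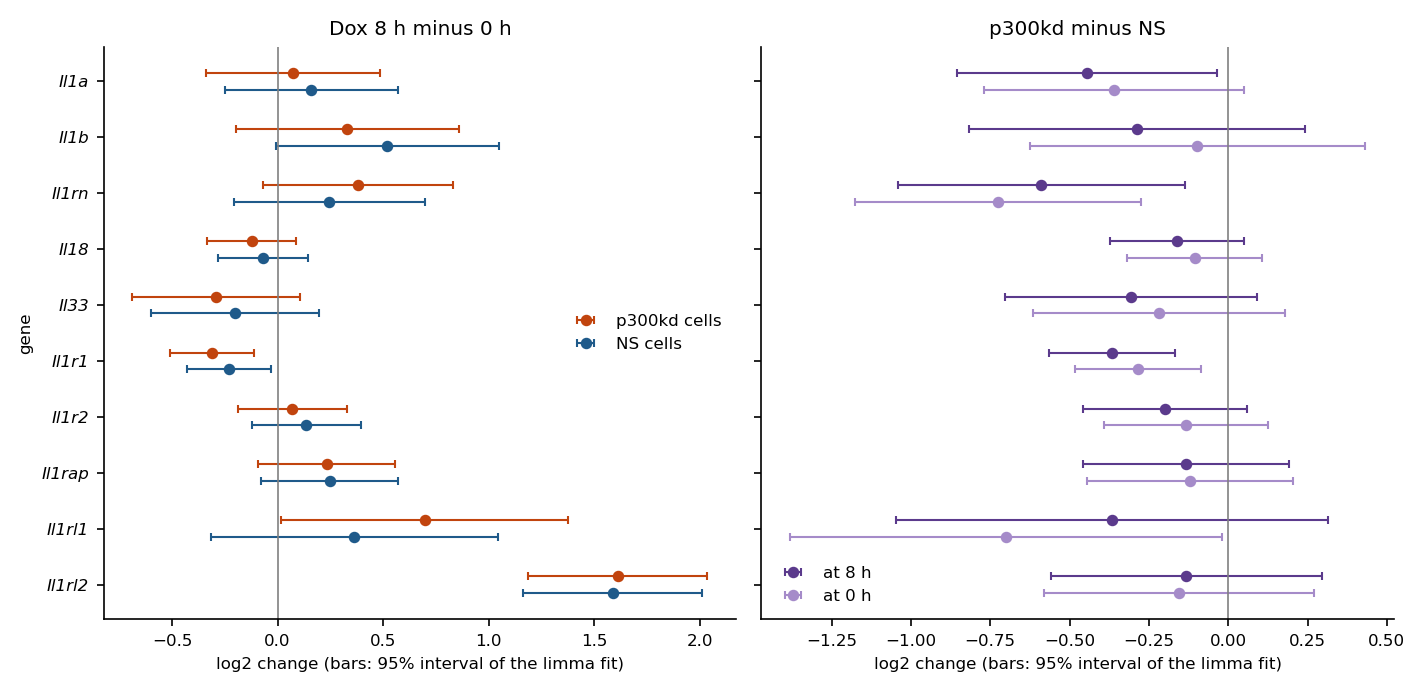
Log2 change of each gene with its 95% interval from the limma fit, for Dox 8 h minus 0 h in p300kd and NS cells in the left panel and for p300kd minus NS at 8 h and at 0 h in the right panel. Il1rl2 stands apart at 1.61 and 1.59 on the left, where its change is a description, and all 10 genes lie below 0 on the right.

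Mean readings of all 10 genes were lower in p300kd than in NS cells, and 1 of them, Il1r1, passed the test. Il1r1 fell by 0.33 (SE 0.0646) averaged over both times, or 1.25-fold (limma, adjusted p = 0.0330, and 0.00267 with the block). The p300kd values of Il1r1 given above lay below all NS values at the same time, with within-experiment differences of -0.16, -0.44 and -0.38. The call was lost without experiment 2 (adjusted p = 0.625) or 3 (0.512) and without any 1 of 9 of the 12 arrays (0.0608 to 0.105), and was kept without experiment 1 (0.0198).

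Il1rn, the receptor antagonist, had the largest averaged p300 difference of the 10. It read 8.69, 8.76 and 8.33 in p300kd cells and 9.14, 9.44 and 8.97 in NS cells at 8 h. At 0 h it read 8.56, 8.32 and 7.76 in p300kd cells and 8.85, 9.28 and 8.68 in NS cells. At each time every p300kd array lay below every NS array. The averaged change was -0.66 (SE 0.147), 1.58-fold lower, with a limma adjusted p = 0.0516 just above the threshold, and 1.49e-04 with the experiment as a block. It passed limma with arrays centred on their medians (0.0470) and without the 0 h p300kd array of experiment 1 (0.0263). It did not pass without any 1 of the other 11 arrays or any 1 of the 3 experiments. The highest limma adjusted p of any alternative was 0.621.

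Il1rl1, Il1a and Il33 missed limma in the averaged comparison and passed with the block; with the block as a random effect Il1a passed (adjusted p = 0.0377) and Il1rl1 (0.0655) and Il33 (0.124) did not. Il1rl1 gave -0.53 (SE 0.222; limma adjusted p = 0.334, block 0.0131), from -0.05 in experiment 1 to -0.87 in experiment 2. Without the 0 h p300kd array of experiment 1 it was -0.74 and passed limma (adjusted p = 0.0460). Over all omissions of 1 array or 1 experiment it ranged from -0.77 to -0.37, and no other omission passed. Il1a gave -0.40 (SE 0.134; limma adjusted p = 0.198, block 0.0149). It read 5.86, 5.69 and 5.42 in p300kd cells and 5.86, 6.64 and 5.81 in NS cells at 8 h, and 5.66, 5.64 and 5.45 in p300kd cells and 6.10, 6.01 and 5.72 in NS cells at 0 h, so the 8 h groups overlapped and the 0 h groups did not. Il33 gave -0.26 (SE 0.130; limma adjusted p = 0.439, block 0.0408), from -0.02 in experiment 1 to -0.42 in experiment 3. Il33 read 9.06, 8.95 and 8.62 in p300kd cells and 9.21, 9.42 and 8.91 in NS cells at 8 h, and 9.54, 9.20 and 8.75 in p300kd cells and 9.42, 9.43 and 9.30 in NS cells at 0 h, with overlap at both times.

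Il1rl2, the gene with the large Dox difference, had little p300 difference. It gave -0.14 averaged over both times, with a 95% interval of -0.44 to 0.16 (limma, adjusted p = 0.747). Il1b, Il18, Il1r2 and Il1rap gave -0.19, -0.13, -0.17 and -0.13, none past the test with or without the block.

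In count, 1 of 10 members fell in the averaged comparison, where 1.25% of all genes passed, and 5 fell with the block, where 9.51% did. At 8 h 0 of 10 passed in limma, where 0.0483% of all genes did, and at 0 h 0 of 10 passed, where 0.0207% did. At an unadjusted p under 0.05 there were 3 of 10 at each time, beside 1155 of all 14506 genes at 8 h and 1008 at 0 h. With the block, Il1rn (adjusted p = 0.0135) and Il1r1 (0.0278) fell at 8 h, where 3.14% of all genes passed; with the block as a random effect neither passed (0.0779 and 0.0626). At 0 h, with the block, Il1rn (0.00404) and Il1rl1 (0.0448) fell, where 2.69% did, and as a random effect Il1rn passed (0.0358) and Il1rl1 did not (0.181). All 10 changes were below 0 at both times and averaged, where 47.9% of all genes were at 8 h, 48.4% at 0 h and 47.4% averaged. The median of the 10 was -0.30 at 8 h, -0.19 at 0 h and -0.23 averaged, beside 0.00510, 0.00406 and 0.00555 over all genes.

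Macrophage markers were also lower in p300kd cells. The summed linear intensity of the 13 markers ranged from 5987 to 7096 in p300kd cells and from 7820 to 9075 in NS cells at 8 h, and from 5446 to 7223 in p300kd cells and from 7490 to 9143 in NS cells at 0 h, without overlap at either time. In the averaged comparison 5 of the 13 fell (limma, adjusted p under 0.05), among them Csf1r (-0.46) and Mrc1 (-0.51), where 1.25% of all genes passed. All 13 were below 0, with a median of -0.29, where 47.4% of all genes were. With the block 9 of the 13 fell, where 9.51% of all genes passed. Of 10 fibroblast markers none passed limma, 5 fell with the block, 9 were below 0, and the median was -0.15. All 7 endothelial markers were below 0 (median -0.11), with none past limma and 1 with the block. Of 6 neutrophil markers Mmp8 fell (-0.41, limma adjusted p = 0.0109) and 2 were above 0. Of 10 cardiac myocyte markers 7 were below 0 (median -0.05), none past either fit. Of 7 mast cell markers 5 were above 0 (median 0.03), with none past limma and 1, Kit (-0.23), lower with the block. Of 5 epithelial markers 3 were above 0 (median 0.01), none past either fit. The part of these cells in the lower readings of Il1rn, Il1r1, Il1a, Il1rl1 and Il33 was not tested.

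**Figure D4:**
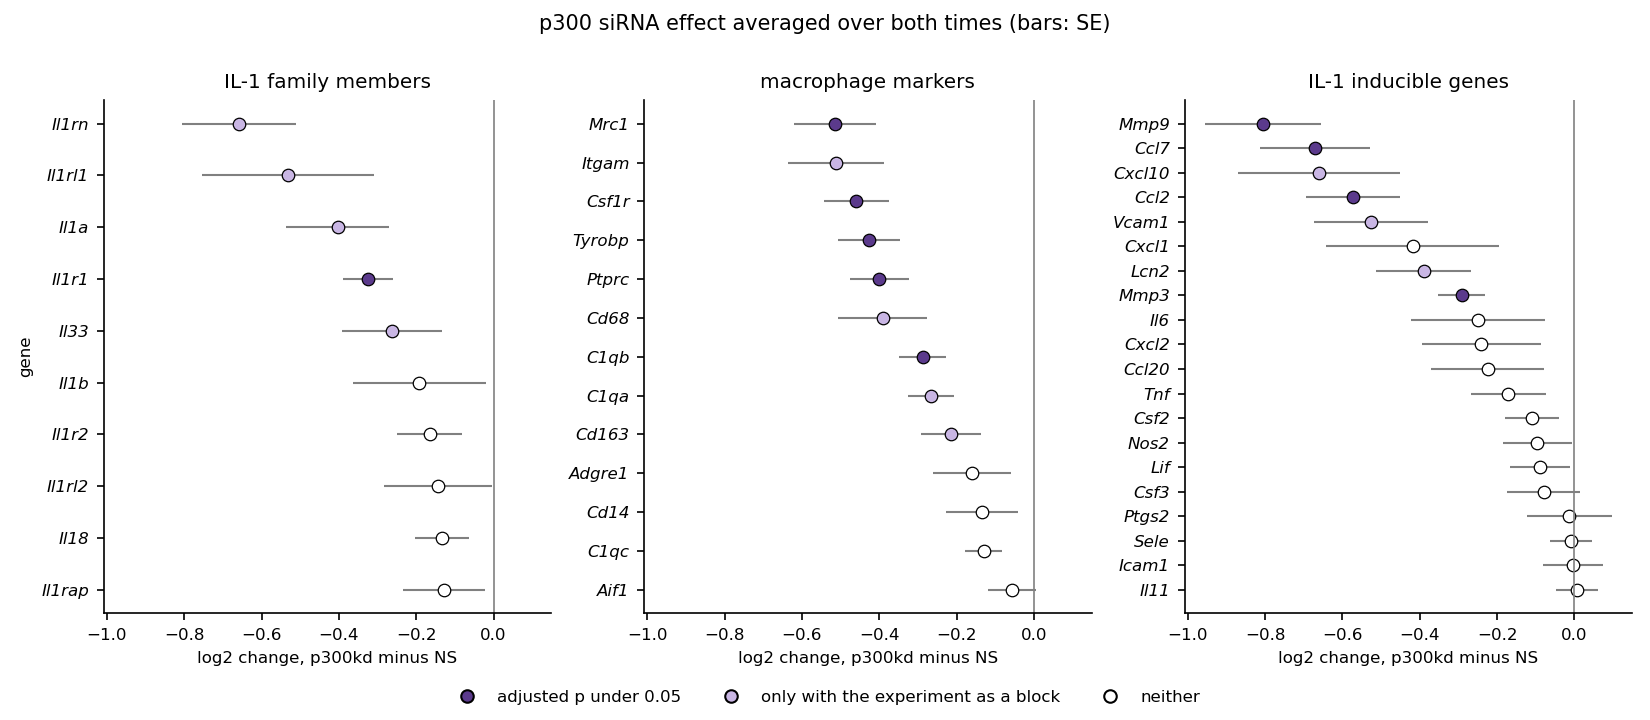
Log2 change p300kd minus NS averaged over both times, with its SE, for the 10 genes, 13 macrophage markers and 20 IL-1 inducible genes; marker fill shows whether the adjusted p was under 0.05 in limma, only with the experiment as a block, or in neither. Macrophage markers, with a median of -0.29, and the 10 family genes, with a median of -0.23, both lie below 0.

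The drug response of the 10 genes was not shown to differ between the arms. For the difference of the Dox change between p300kd and NS cells, 0 of 10 passed limma, where 0.0% of all genes passed. With the block 0 passed as well, again with 0.0% of all genes. At an unadjusted p under 0.05 in limma there were 0 of 10, beside 228 of all 14506 genes. For Il1rl2 the difference was 0.02, with a 95% interval of -0.58 to 0.63. For Il1rl1 it was 0.33, with an interval of -0.63 to 1.30, so sizeable differences in either direction lie within the error.

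Downstream of the receptors, adaptor and NF-κB genes were called in both directions with Dox. Their counts are read against the share of all genes called, 31.4% in p300kd cells and 27.5% in NS cells, or 45.8% and 43.5% with the block. Of 18 measured of 20 listed receptor-proximal genes, 5 rose and 3 fell in p300kd cells, and 2 rose and 3 fell in NS cells, which became 5 and 5 in each arm with the block. The NS count of 5 of 18 is close to the share of all genes. The 3 that fell were the same in both arms. Tab1, a binding subunit of the kinase TAK1, fell by 1.56 in p300kd cells and by 1.50 in NS cells. Traf6, the ubiquitin ligase downstream of MyD88, fell by 1.00 and by 0.88, and Tab2, a second TAK1 binding subunit, fell by 0.49 and by 0.37. Chuk, the IKKα kinase, rose by 0.49 in p300kd cells and by 0.36 in NS cells, and Irak1, a kinase of the receptor complex, by 0.27 and by 0.34. In p300kd cells Ube2n, the ubiquitin conjugating partner of TRAF6, rose by 0.42, Irak3, an inhibitory IRAK, by 0.30, and Map3k7, which encodes TAK1, by 0.30. Peli1, a ubiquitin ligase of the pathway, gave -0.30 in p300kd cells and -0.38 in NS cells, missing limma and passing with the block in each (adjusted p = 0.0224 and 0.00612).

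Of 9 measured of 12 listed NF-κB subunits and feedback inhibitors, 2 rose and 3 fell in each arm. Rela, the p65 subunit, fell by 0.98 in p300kd cells and by 0.70 in NS cells, Nfkbib, an inhibitor, by 0.62 and by 0.38, and Nfkb1, the p105 precursor, by 0.36 and by 0.34. Nfkb2, the p100 precursor, rose by 0.26 in p300kd cells and by 0.40 in NS cells, and Nfkbie, another inhibitor, by 0.33 and by 0.30. Zc3h12a, an RNase that degrades cytokine transcripts, gave 0.16 and 0.24, and Nfkbia, the inhibitor IκBα, gave -0.07 and 0.07, none past the test.

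Of 11 measured of 14 listed inflammasome and maturation genes, 1 rose and 1 fell in p300kd cells, and 2 rose and 1 fell in NS cells, no more often than the 31.4% and 27.5% of all genes. Txnip, which binds thioredoxin, fell by 0.89 in p300kd cells and by 1.13 in NS cells, and Nek7, an NLRP3 partner, rose by 0.52 and by 0.46. Gsdmd, the pore protein through which mature IL-1β leaves cells, rose in NS cells (0.37, limma adjusted p = 0.0183), and its 0.12 in p300kd cells did not pass (0.411). The DNA sensor Aim2 gave 0.19 and 0.29 and the ATP-gated channel P2rx7 gave -0.18 and -0.21, none past the test. Of 9 measured of 15 listed other ligands, receptors and decoys of the family, none passed limma in either arm. Of these, Il18bp, the secreted trap of IL-18, gave 0.20 in p300kd cells and 0.42 in NS cells and passed with the block in each (0.0329 and 2.39e-04). Il36b, a ligand of the Il1rl2 receptor, gave 0.18 and 0.16.

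Of 20 genes that IL-1 is known to induce, 4 rose and none fell in p300kd cells, with a median of 0.19, and 5 rose and none fell in NS cells, with a median of 0.17. These counts lie below the 31.4% and 27.5% of all genes called in either direction. Of all genes, 2017 rose and 2543 fell in p300kd cells, and 1617 rose and 2375 fell in NS cells. Counted as rises alone, the 4 and 5 of 20 were larger shares than those of all genes. That difference was not tested. The cytokine Il6 rose by 1.43 in p300kd cells and by 1.42 in NS cells, the adhesion molecule Icam1 by 0.96 and by 1.07, and the cytokine Lif by 0.95 and by 0.94. The chemokine Cxcl2 rose by 0.65 in p300kd cells and by 0.81 in NS cells. Cxcl1, a neutrophil chemokine, gave 0.86 in p300kd cells (limma, adjusted p = 0.0544, block 0.00339) and 0.91 in NS cells (0.0479), a call that held under 9 of 22 alternatives. With the block 7 of the 20 rose in p300kd cells and 8 in NS cells. Cxcl10, an interferon-induced chemokine, gave 0.23 in p300kd cells and 0.49 in NS cells, and passed in NS cells with the block (limma, adjusted p = 0.250, block 9.14e-04). The protease gene Mmp9 gave 0.48 and 0.41, missing limma (adjusted p = 0.105 and 0.173) and passing with the block (0.00105 and 0.00358).

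With p300 knockdown 4 of the 20 fell in the averaged comparison, where 1.25% of all genes passed. Of the 20, 19 were below 0, with a median of -0.23, where 47.4% of all genes were. The 4 were the protease genes Mmp9 (-0.81) and Mmp3 (-0.29) and the monocyte chemokines Ccl7 (-0.67) and Ccl2 (-0.57), with limma adjusted p-values of 0.0292 to 0.0400. Cxcl10 (-0.66) and the adhesion molecule Vcam1 (-0.53) missed limma and passed with the block. Under the block 7 of the 20 fell, where 9.51% of all genes passed. No gene of the other 4 pathway lists passed limma in that comparison. Macrophages also express several of these genes, and macrophage markers were lower in p300kd cells in the same comparison, as given above. The part of these cells in the lower readings was not tested.

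The genes whose pattern over the 12 arrays came closest to that of Il1rl2 were outside the family. Likeness was the root mean square difference of log2 values after each gene's own mean was removed. Fam167a came first at 0.0933, followed by Abcb1b, a drug efflux transporter, at 0.135, Fosl1, an AP-1 subunit, at 0.174, Gdf15, a stress-induced cytokine, at 0.181, and Slc4a11, a membrane transporter, at 0.183. The median over all genes was 0.827. Within the family Il1rl1 was the closest at 0.599, in place 349 of all genes, and Il1r1 the farthest at 0.960, in place 11626.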

How the data were processed

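Expression was measured in 12 cultures (4 groups of 3) on Affymetrix whole-transcript arrays. The authors summarised probe sets by RMA in Expression Console 1.1, per the submitters' processing notes; the deposited intensity values are on a linear scale (8.05 to 25315), a step not stated in the sources used here. Log2 was taken here. Of 29214 probe sets, 15310 carried 1 gene symbol, 323 several (not named) and 13581 none; the brightest probe set stood for each of 14506 genes. Group means were fitted with limma 3.58.1 in R 4.3.3 (eBayes with trend, Benjamini-Hochberg over all genes, adjusted p under 0.05). The fit without a block was tested on simulated arrays that varied independently of each other. The simulation therefore covers neither the block fits nor correlation within experiments. No detection calls were used, and 12 arrays limit the precision. Changes were taken as Dox 8 h minus 0 h and p300kd minus NS.

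Replicate numbers, taken from the labels, pair the arrays: deviations from group means correlated in all 18 same-number pairs (median r = 0.504, 0.172 to 0.689), with a median of -0.271 for other pairs. They are called experiments, and values with the experiment as a block are given where they change a member's call. Nothing states whether cultures of an experiment shared animals, so p-values measure the spread between these cultures. Named are all 10 members, Ep300, up to 4 called genes per pathway list and direction and up to 2 uncalled ones, by size of change, the 5 genes nearest Il1rl2 by pattern, and markers as needed. The members and lists were chosen with earlier results of these data known.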

Additional observations from a re-analysis of the deposited data

How the results depend on the processing

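The replicate block changed more counts than the other alternatives. With the experiment as a fixed block the members passing were 5 for Dox in p300kd cells (1 without it), 3 for Dox in NS cells (0), 2 for p300kd minus NS at 8 h (0), 2 at 0 h (0) and 5 averaged (1). As a random effect it gave 3 for Dox in p300kd cells, 2 for Dox in NS cells, 0 at 8 h, 1 at 0 h and 3 averaged; the fixed-block calls lost were Il1rap with Dox in both arms, Il33 with Dox in p300kd cells, Il1rn and Il1r1 at 8 h, Il1rl1 at 0 h, and Il33 and Il1rl1 averaged. Over all genes the fixed block raised the passing genes to 6317 (3992 without it) for Dox in NS cells, 455 (7) at 8 h, 390 (3) at 0 h and 1380 (181) averaged. It changed no call in the difference of Dox responses. Median centring gave 0 for Dox in p300kd cells and 2 averaged; it raised the median Dox change of all genes to 0.145 in p300kd cells and 0.139 in NS cells, and Il1rl2 to 1.71 and 1.69. Leaving out 1 experiment or 1 array gave 0 to 2 for Dox in p300kd cells, 0 to 1 for Dox in NS cells, 0 to 3 averaged and 0 in the other comparisons. Il1rl2 then ranged from 1.41 to 1.87 with Dox in p300kd cells and from 1.49 to 1.67 in NS cells. Of 1276 values for single members, 1229 kept their side of the threshold, 17 lost the call and 30 gained it. No called value changed sign, and 39 uncalled ones did. The 1229 include the untested Dox values of Il1rl2, counted as kept because each moved by less than the larger SD of the groups compared. The fit of only the groups compared was not applicable to the averaged comparison or the difference of responses. The causes of these changes were not tested.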
